A study of Mus musculus with 6 samples.

Results

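Foxo1, Foxo3 and Foxo4 encode forkhead transcription factors of the FoxO family. These genes were taken by symbol from the 22609 genes listed for each sample, and all 3 had enough reads to be among the 13117 genes tested. Foxo6, the remaining family member, is given beside them for comparison. The cells were primary white adipocytes, differentiated in culture from stromal vascular cells of the inguinal (subcutaneous) fat of male C57BL6 mice, aged 3 weeks per the labels. RNA was sequenced from 3 samples that received mimic control and 3 that received miR-182-5p mimic. The labels name a control vector, miR182 overexpression and electroporation, whereas the study's methods describe a synthetic mimic delivered with a lipid reagent and slightly older mice. The groups are called mimic control and miR-182-5p mimic here. The samples are numbered 1 to 3 in each group, and neither source says whether they came from separate mice or cultures, so the p-values measure the spread between these samples, which may be technical.

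FoxO proteins bind DNA in the nucleus and switch on genes for cell cycle arrest, stress resistance, autophagy and the fasting response. Insulin and IGF-1 act through PI3K and the kinase AKT, which phosphorylates FoxO proteins so that they are held in the cytoplasm by 14-3-3 proteins. In adipocytes, FoxO1 restrains differentiation and drives transcription of Pnpla2, which encodes the lipase ATGL. A miRNA pairs through its seed, bases 2 to 8 from its 5′ end, with sites mostly in the 3′-UTR of an mRNA and lowers that mRNA's level or translation. FoxO mRNAs are reported targets of miR-182 in other tissues.

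Reads counted on genes ranged from 25869810 to 28796712 per sample. Libraries were made from poly(A) RNA, which leaves out mature miRNAs, so the level of miR-182-5p itself was not measured. The 10 adipocyte markers examined were all tested, and their summed level was 12410 to 13190 CPM (reads scaled to a common library size with TMM factors) with mimic control and 8485 to 9614 CPM with the mimic. With the mimic 8 of them were lower, 1 was higher and 1 did not pass the test (edgeR adjusted p under 0.05). Over all genes tested, 23.5% were lower and 23.2% higher at that cutoff. Stromal progenitor markers summed to 2172 to 2222 CPM with mimic control and 1920 to 2065 CPM with the mimic (5 of 7 tested lower, 1 higher), and smooth muscle markers to 3454 to 3626 and 4130 to 4496 CPM (3 of 5 higher). Macrophage and endothelial markers summed to at most 15.8 and 9.27 CPM in any sample. The leukocyte marker Ptprc had at most 4 reads in any sample and the endothelial marker Pecam1 at most 11. In RNA from whole cultures, fewer cells of a type and less RNA per cell cannot be told apart.

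The mature sequence of mouse miR-182-5p is shown because its seed defines the sites searched for. Its cluster neighbours miR-96-5p and miR-183-5p have seeds that differ from it at the ends, and miR-30c-5p is included because, in describing qRT-PCR, the study's methods print for miR-182-5p a mature sequence with the miR-30 seed. Sequences are from RefSeq (GRCm38.p6), with the seed in capitals, and miR-182-5p lies on the minus strand at chr6:30165962-30165986.
miR-182-5p: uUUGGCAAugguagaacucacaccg
miR-96-5p: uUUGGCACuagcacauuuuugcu
miR-183-5p: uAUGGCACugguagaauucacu
miR-30c-5p: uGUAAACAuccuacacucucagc

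The DNA letters that pair with the miR-182-5p seed are TTGCCAA on the transcript strand. Searched in the longest GENCODE M21 3′-UTR of each gene (GRCm38), they occurred 1 time in Foxo1, 2 times in Foxo3 and 0 times in Foxo4. Each of the 3 matches was followed by an A, which makes an 8-base site. Of 12510 tested genes with an annotated 3′-UTR, 12.5% held at least 1 match, 1.93% held 2 or more, and 5.24% held an 8-base site. The 3′-UTRs differed in length, with 6240 bases in Foxo1, 4490 in Foxo3 and 1351 in Foxo4. A 3′-UTR as long as that of Foxo1 was found in 2.13% of the genes and one as long as that of Foxo3 in 5.97%. Foxo4 carried TTGCCAA in its coding sequence instead. The sites are printed with their flanks, 5′ to 3′ on the transcript, the match in capitals.
Foxo1, 3′-UTR base 3901: tgtgtttgctcTTGCCAAaagctgccgga
Foxo3, 3′-UTR base 73: gagaaaaccctTTGCCAAatctgctctca
Foxo3, 3′-UTR base 892: gcctctgcccgTTGCCAAatgccacgaat
Foxo4, coding base 704: tctgggccactTTGCCAAgtggtcaagca

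The Foxo1 match lies in exon 3 of 3 at chr3:52350882-52350888 on the plus strand, beyond the end that RefSeq gives the gene. The Foxo3 matches are in exon 4 of 4 on the minus strand, at chr10:42186252-42186258 and chr10:42185433-42185439, inside the RefSeq gene. The Foxo4 match is in exon 2 of 3 on the plus strand at chrX:101258427-101258433. A search for the weaker match, to bases 2 to 7 followed by an A (TGCCAAA), was added after the data were seen. It found 1 further site in Foxo1, at 3′-UTR base 261 (chr3:52347242-52347248), and none in Foxo3 or Foxo4. Such a match was present in 10.2% of the genes.
Foxo1, 3′-UTR base 261: ttacaatgaagTGCCAAActcactacacc

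That last site shares bases with a miR-96-5p match (GTGCCAA), which starts 1 base earlier, at base 260. Foxo1 also held a miR-183-5p match (GTGCCAT) at base 234, so its 3′-UTR had a match for each miRNA of the cluster, and Foxo4 held a miR-96-5p match at base 232. The letters paired by the miR-30 seed, TGTTTAC, were found in none of the 3 genes' 3′-UTRs, and in 16.4% of those of the genes searched. A match is a run of letters and does not show that the site was bound.

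**Figure D1:**
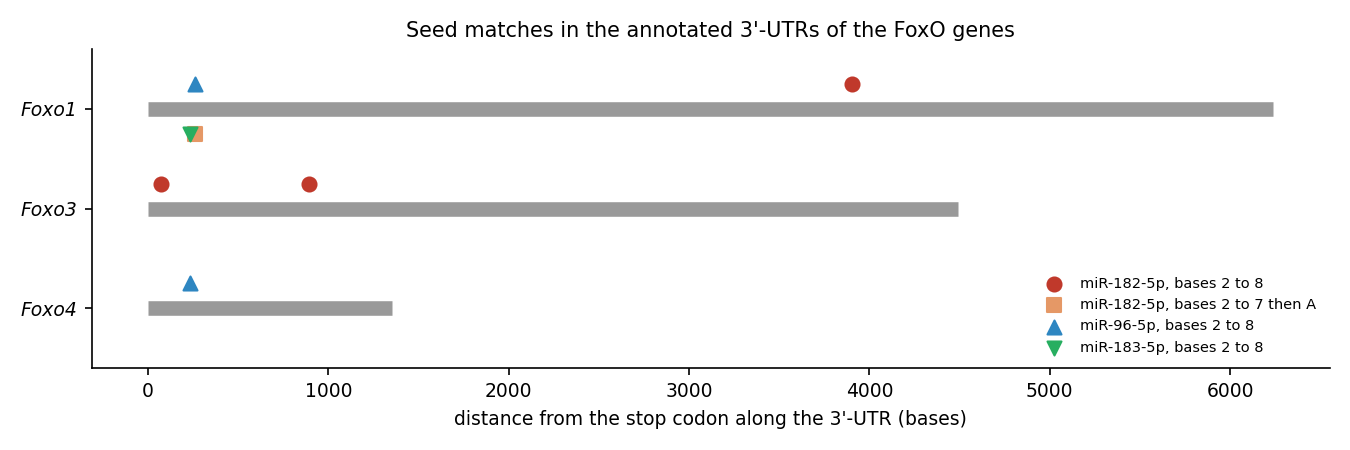
The 3′-UTRs of Foxo1, Foxo3 and Foxo4 drawn to scale as grey bars, with distance from the stop codon in bases on the x axis and seed matches of miR-182-5p, miR-96-5p and miR-183-5p as symbols. Foxo3 has a pair of full miR-182-5p matches, at bases 73 and 892, Foxo1 has 1 far downstream at base 3901, and Foxo4 has none.

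Foxo1 fell with the miR-182-5p mimic, Foxo4 was slightly lower, and the Foxo3 groups overlapped. Foxo1, located at chr3:52268336-52353221, encodes the family member with the best-known role in adipocyte differentiation and insulin action. Its level was 37.7, 39.2 and 40.5 CPM in mimic control samples 1 to 3 (960, 1023 and 1057 reads) and 27.9, 29.5 and 28.2 CPM in mimic samples 1 to 3 (814, 778 and 796 reads). Every mimic sample lay below every control sample, an ordering found in 27.5% of all genes tested. The mean went from 39.1 ± 1.39 CPM (SD, n = 3) to 28.5 ± 0.874 CPM (SD, n = 3), which is 72.9% of control with a 95% interval of 67.7% to 78.5%. The log2 fold change was -0.46 (SE 0.0494, edgeR quasi-likelihood test, Benjamini-Hochberg adjusted p = 4.25e-06). The decrease of 1.37-fold stayed under the 1.5-fold cutoff that the study set beside an adjusted p of 0.05. It passed the adjusted p in 13 of 13 alternative fits.

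Foxo3, located on the minus strand at chr10:42181841-42276755, encodes a factor known for stress resistance and autophagy. Its level was 26.4, 23.5 and 23.6 CPM with mimic control (673, 615 and 615 reads) and 20.6, 20.1 and 24.3 CPM with the mimic (602, 530 and 687 reads). Mimic sample 3 stood above control samples 2 and 3, so the groups overlapped. Group means were 24.5 ± 1.67 and 21.7 ± 2.30 CPM (SD, n = 3 each), a log2 difference of -0.18 (SE 0.0752) with an edgeR adjusted p of 0.0702. The level with the mimic was 88.5% of control with an unadjusted 95% interval of 79.2% to 99.0%. The result depended on single samples. Without mimic sample 3 the log2 fold change was -0.26 (SE 0.0692) and the edgeR adjusted p was 0.00677. It was -0.118 without control sample 1 (edgeR adjusted p = 0.27) and -0.121 without mimic sample 2 (edgeR adjusted p = 0.251).

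Foxo4, located at chrX:101254528-101260873, encodes a smaller family member also under AKT control. Its level was 27.9, 30.1 and 27.4 CPM with mimic control (711, 785 and 716 reads) and 25.4, 26.2 and 25.9 CPM with the mimic (742, 690 and 732 reads). The groups did not overlap, and the gap between them was narrow. The mean went from 28.5 ± 1.39 to 25.8 ± 0.392 CPM (SD, n = 3 each), which is 90.8% of control (95% interval 83.8% to 98.2%). The log2 fold change of -0.14 (SE 0.0532) passed the test by a small margin (edgeR adjusted p = 0.0436). It passed in 5 of 13 alternative fits, and DESeq2 gave an adjusted p of 0.132.

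Of the 3 genes, 2 were lower past the adjusted p and none was higher, against 46.7% of all genes tested past it in either direction, 23.5% lower and 23.2% higher. None was past the adjusted p and the 1.5-fold cutoff together, which 7.45% of all genes passed. The summed level of the 3 genes was 91.5 to 92.8 CPM with mimic control and 73.9 to 78.5 CPM with the mimic. The summed adipocyte markers given above moved in the same direction, with 8 of 10 lower, and their part in the FoxO result was not tested.

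Foxo6, on the minus strand at chr4:120267079-120287349 and best known from brain and liver, was scarce in these cells. The mimic control samples held 19, 18 and 21 reads of it, and the mimic samples 37, 30 and 35. Every mimic sample was above every control sample, as in 27.3% of all genes. It rose from a mean of 0.747 ± 0.0577 CPM to 1.22 ± 0.0678 CPM (SD, n = 3 in each group). The log2 fold change was 0.70 (SE 0.213, edgeR adjusted p = 0.0149). The mimic level was 163% of control with a 95% interval of 118% to 223%.

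**Figure D2:**
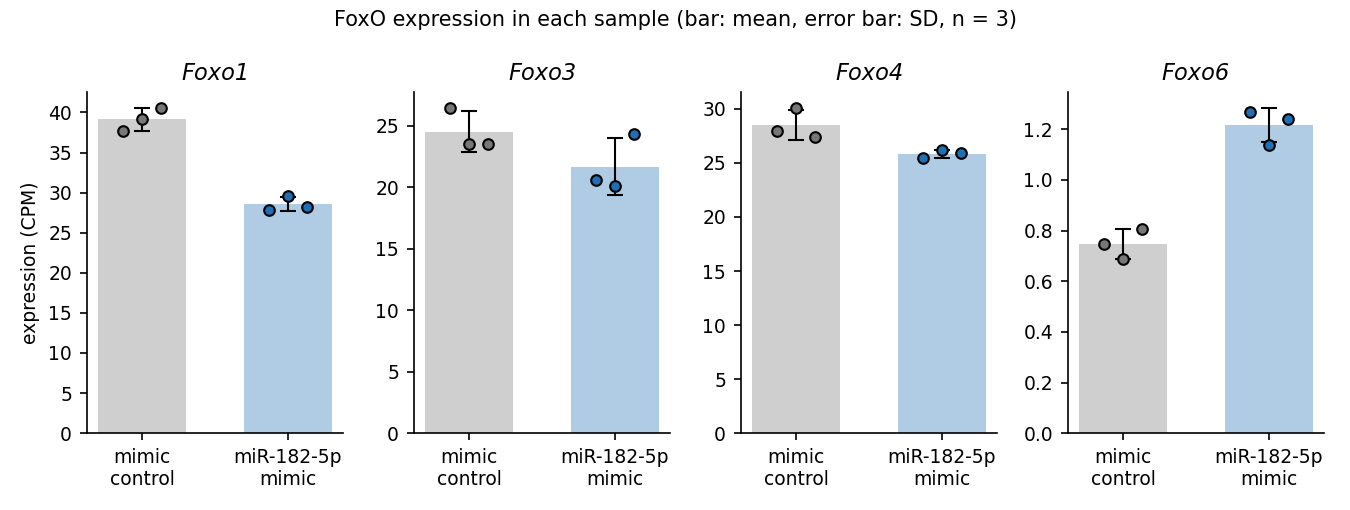
Expression of Foxo1, Foxo3, Foxo4 and Foxo6 in CPM (y axes from 0, each on its own scale) in 3 mimic control and 3 miR-182-5p mimic samples, with points for samples, bars for means and error bars for SD. Foxo1 samples lie at 37.7 to 40.5 CPM in control and 27.9 to 29.5 CPM with the mimic, while the Foxo3 groups overlap.

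**Figure D3:**
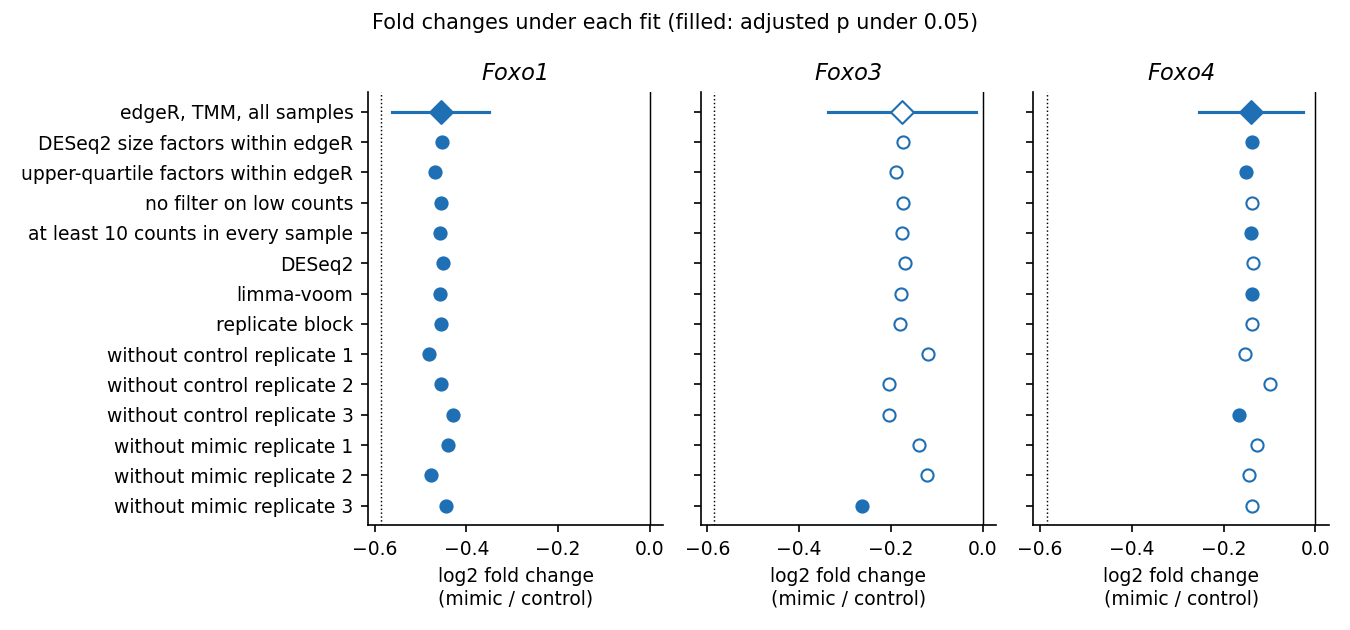
Log2 fold changes (x axis, mimic over control) of Foxo1, Foxo3 and Foxo4 under each fit (y axis), with the edgeR fit of all samples as a diamond with its 95% interval, filled symbols for an adjusted p under 0.05, and the dotted line at a 1.5-fold decrease. Foxo1 stays between -0.48 and -0.43, and Foxo3 is filled only without mimic replicate 3.

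Levels can be compared between genes only per length. Per kilobase of GENCODE exon, Foxo4 had the highest level with mimic control, 8.17 ± 0.400 CPM per kb, followed by Foxo1 with 4.52 ± 0.161, Foxo3 with 3.24 ± 0.220 and Foxo6 with 0.286 ± 0.0221 (SD, n = 3). No neighbours in this order overlapped between samples. With the mimic, Foxo4 stood at 7.42 ± 0.113 CPM per kb, Foxo1 at 3.29 ± 0.101 and Foxo3 at 2.87 ± 0.304, and Foxo1 and Foxo3 were then close together, 3.22 to 3.41 against 2.66 to 3.21 CPM per kb. Taken as shares of the summed level per kb, Foxo1 went from 28.4% ± 1.30 to 24.3% ± 0.851, Foxo3 from 20.3% ± 1.498 to 21.1% ± 1.83, and Foxo4 from 51.3% ± 1.54 to 54.7% ± 1.01 (SD, n = 3). The GENCODE model of Foxo1 holds 8665 exon bases, of which 5552 lie inside the RefSeq gene. With the shorter length, chosen after the data were seen, the Foxo1 level was 7.05 ± 0.251 CPM per kb with mimic control and 5.14 ± 0.157 with the mimic, between Foxo4 and Foxo3 as before.

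The log2 ratio of Foxo1 to Foxo3 was 0.51, 0.73 and 0.78 with mimic control and 0.43, 0.55 and 0.21 with the mimic. These values overlap, and the difference of -0.27 had p = 0.2 in a two-sided exact permutation test (adjusted over 3 ratios, 0.3). For Foxo1 to Foxo4 the ratio was 0.43, 0.38 and 0.56 with mimic control and 0.13, 0.17 and 0.12 with the mimic. Those groups did not overlap, and the difference of -0.32 had the smallest p that 3 samples against 3 allow, 0.1 by exact permutation (adjusted 0.3). The Foxo4 to Foxo3 ratio moved by 0.04 (exact permutation p = 0.7, adjusted 0.7). With 3 samples against 3 none of these ratio tests could reach 0.05, so they do not settle whether the decreases differed in size. The fitted 95% interval of the log2 fold change was -0.56 to -0.35 for Foxo1, -0.34 to -0.01 for Foxo3 and -0.25 to -0.03 for Foxo4. The Foxo1 interval overlapped neither of the others, and it lay only just below that of Foxo3. The difference between genes was not tested in this fit.

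Genes were also grouped by their number of TTGCCAA matches. The median log2 fold change was 0.01 over 10942 genes without a match, -0.06 over 1327 genes with 1, -0.15 over 201 genes with 2 and -0.13 over 40 genes with 3 or more. Among the genes with 1 match, 16.3% had a log2 fold change as low as that of Foxo1, against 9.51% of all genes tested, and the interquartile range of that group was -0.31 to 0.10. Placing Foxo1 in that group rests on the GENCODE model, since its match lies beyond the RefSeq end of the gene. Foxo3 was close to the median of the genes with 2 matches, 47.8% of which were as low (25.9% of all genes). Foxo4 lay inside the interquartile range of the genes without a match, -0.16 to 0.15. The medians for miR-96-5p matches (GTGCCAA) were also lower with more matches, -0.02 with 1 (1088 genes), -0.06 with 2 (107 genes) and -0.20 with 3 or more (17 genes). For miR-183-5p matches (GTGCCAT) they were 0.02 with 1 (1229 genes), 0.07 with 2 (114 genes) and 0.08 with 3 or more (15 genes). For the miR-30 letters TGTTTAC they were 0.03 with 1 (1679 genes), 0.04 with 2 (309 genes) and 0.11 with 3 or more (65 genes).

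**Figure D4:**
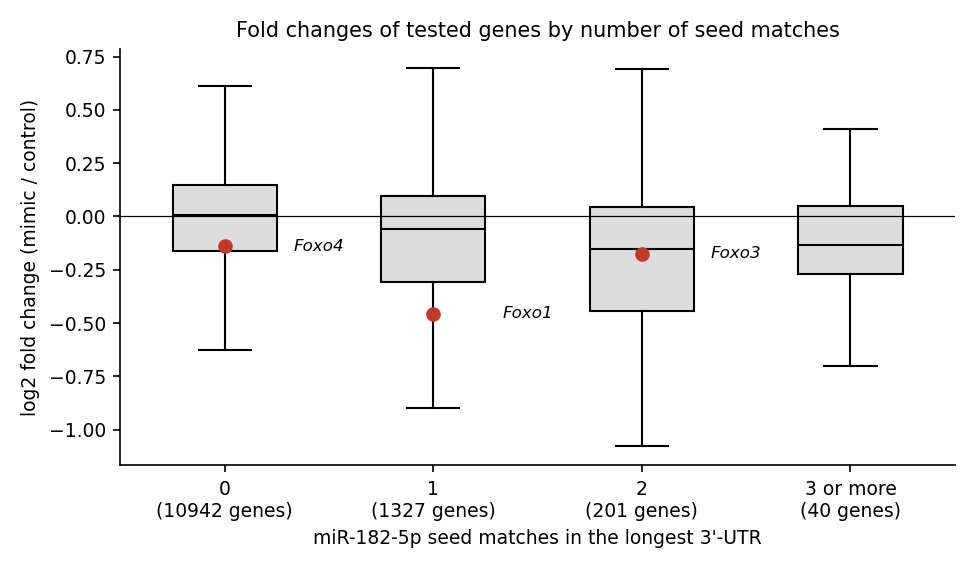
Log2 fold changes (y axis, mimic over control) of tested genes by the number of miR-182-5p seed matches in the longest 3′-UTR (x axis), with boxes for the interquartile range, lines for medians, whiskers to the last gene within 1.5 box lengths, and red points for the FoxO genes. Foxo1 lies below the box of genes with 1 match, and Foxo3 and Foxo4 lie inside theirs.

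The expression patterns most like that of each gene over the 6 samples were ranked by Pearson correlation of log2 CPM among 10330 genes with a mean of at least 5 CPM. Those nearest to Foxo1 were Tti1 (r = 0.999), Inpp5a (r = 0.998) and Abcd4 (r = 0.998), and 932 genes exceeded 0.95. For Foxo3 the nearest were Tubg1 (r = 0.996), Inpp1 (r = 0.990) and D2hgdh (r = 0.979), and 19 genes exceeded 0.95. For Foxo4 they were Ccpg1 (r = 0.992), Lias (r = 0.991) and Pcmtd1 (r = 0.990), and 85 genes exceeded 0.95. Between the family members r was 0.847 for Foxo1 and Foxo4, 0.573 for Foxo1 and Foxo3 and 0.502 for Foxo3 and Foxo4. All genes share the 6 samples and the 2 groups, so these values describe shape only.

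Regulators that act on FoxO proteins were examined next. All 43 genes reported here were tested, and 25 passed the adjusted p (58.1%, against 46.7% of all genes tested), 15 higher and 10 lower, with a median log2 fold change of 0.019 against -0.0043 over all genes tested. Only Ywhag and Skp2 also passed the 1.5-fold cutoff. Among 13 genes of insulin and IGF-1 input, 4 rose and 5 fell (69.2% past the adjusted p). Irs1, an adaptor that couples the insulin receptor to PI3K, fell from 108 ± 1.42 to 83.3 ± 4.86 CPM (log2 fold change -0.38, SE 0.0397, edgeR adjusted p = 3.31e-06). Its relative Irs2 rose from 20.5 ± 0.730 to 24.5 ± 0.636 CPM. The PI3K subunits Pik3cb and Pik3r1 fell by 0.31 and 0.17 on the log2 scale, and Pik3r2 rose by 0.14. Of the kinases that phosphorylate FoxO proteins directly, Akt1 was lower (-0.11) and Akt2 had an edgeR adjusted p of 0.872. The related kinase Sgk1 rose by 0.35 on the log2 scale (SE 0.0394), and Pdpk1, which activates these kinases, rose by 0.14 on the log2 scale.

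Among 4 genes for phosphatases that act on AKT or FoxO proteins, 3 rose and none fell, where 23.2% of all genes tested were higher and 23.5% lower. Ppp2ca, a catalytic subunit of a protein phosphatase, was at 220, 231 and 229 CPM with mimic control and at 276, 276 and 272 CPM with the mimic. These groups were well apart, and the log2 fold change was 0.28 (SE 0.0284, edgeR adjusted p = 2.62e-06). The related subunit Ppp2cb rose by 0.15 on the log2 scale, and Phlpp1, which dephosphorylates AKT, by 0.22.

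Of 8 genes for 14-3-3 proteins and nuclear export, 2 rose and 1 fell. That is 37.5% past the adjusted p, against 46.7% of all genes tested. Ywhag, which encodes the gamma form of 14-3-3, was at 756, 745 and 747 CPM with mimic control and at 435, 424 and 443 CPM with the mimic. It fell to 57.9% of control (log2 fold change -0.79, SE 0.0282, edgeR adjusted p = 4.45e-11). The zeta form Ywhaz rose from 83.1 ± 1.34 to 118 ± 1.67 CPM (log2 fold change 0.50), and the exportin Xpo1 rose by 0.17 on the log2 scale. The remaining 14-3-3 genes did not pass the test.

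Of 10 genes for enzymes that acetylate, methylate or ubiquitinate FoxO proteins or reverse these marks, 2 rose and 3 fell. That is 50% past the adjusted p, near the 46.7% of all genes tested. Skp2, a ubiquitin ligase subunit that marks FoxO1 for degradation, was at 10.5, 11.7 and 13.6 CPM with mimic control and at 7.84, 6.83 and 7.23 CPM with the mimic. No sample overlapped, and the log2 fold change was -0.71 (SE 0.0999, edgeR adjusted p = 4.75e-05). Prmt1 and Sirt2 fell by 0.17 and 0.11 on the log2 scale, whereas Mdm2 and Usp7 rose by 0.16 and 0.13. Of 8 other kinases, 4 rose and 1 fell (62.5% past the adjusted p). Among them the AMPK catalytic subunits moved in opposite directions, Prkaa2 up by 0.50 and Prkaa1 down (log2 fold change -0.20). Stk4, Stk3 and Mapk8 rose by 0.27, 0.13 and 0.14 on the log2 scale. Of the regulators tested, 7 held a TTGCCAA match in the 3′-UTR, and after their values were seen Ywhag, Skp2 and Sgk3 (log2 fold change -0.45) were singled out as those that held one and fell, while Mapk8 and Pdpk1 held one and rose.

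Genes reported elsewhere as FoxO targets were described as a list of 37, of which 5 had at most 9 reads in any sample and were not tested. The list includes 3 genes reported as repressed by FoxO proteins (Pparg, Ccnd1 and Ccnd2). It shares Insr and Irs2 with the regulators above. Of the 32 tested, 23 passed the adjusted p (71.9%, against 46.7% of all genes). These were 7 higher, with Ccnd1 among them, and 16 lower, with Pparg among them. The median log2 fold change of the 32 was -0.13. The count past the adjusted p ranged from 19 to 25 over the alternative fits. Several of these genes are also expressed as part of the adipocyte programme, Pparg among the markers above, and the part of the lower adipocyte markers in these counts was not tested.

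Pdk4 and Pnpla2, both metabolic genes, passed the 1.5-fold cutoff as well. Pnpla2, the triglyceride lipase gene, was at 896, 889 and 869 CPM with mimic control and at 520, 561 and 567 CPM with the mimic. It fell to 62.1% of control (log2 fold change -0.69, SE 0.0345, edgeR adjusted p = 1.71e-09). Pdk4, whose product restrains glucose oxidation, was at 47.9, 51.0 and 49.8 CPM with mimic control and at 27.8, 30.1 and 26.9 CPM with the mimic. It fell to 57.0% of control (log2 fold change -0.81, SE 0.0518, edgeR adjusted p = 2.00e-08). In each gene the groups were far apart. Both also hold TTGCCAA in their own 3′-UTRs, 1 match in Pnpla2 and 2 in Pdk4. Of the 32 tested targets 5 held a match, as did 12.5% of tested genes with an annotated 3′-UTR. The others were Bcl2l11 and Cited2, which fell, and Bnip3, which rose. Of 8 metabolic targets tested, 3 fell and 1 rose, with Eif4ebp1 also lower (-0.18) and Irs2 higher. That is 50% past the adjusted p, near the 46.7% of all genes tested. The gluconeogenic gene Pck1 had 7.55 ± 0.354 and 7.88 ± 1.12 CPM (edgeR adjusted p = 0.683).

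Of 11 targets for oxidative stress and autophagy, 7 fell and 2 rose (81.8% past the adjusted p, against 46.7% of all genes tested). Pink1, a kinase that starts removal of damaged mitochondria, fell from 97.6 ± 2.77 to 67.1 ± 2.43 CPM (log2 fold change -0.54, SE 0.0372, edgeR adjusted p = 4.28e-08). Txnip, an inhibitor of thioredoxin, fell from 301 ± 4.71 to 217 ± 10.8 CPM (log2 fold change -0.47). Map1lc3b, the autophagosome protein LC3B, and the peroxidase gene Prdx3 fell by 0.41 and 0.29 on the log2 scale. The mitophagy receptor gene Bnip3 rose by 0.36 and the ubiquitin ligase gene Fbxo32 by 0.25.

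Of 10 targets for cell cycle arrest and apoptosis, 5 fell and 3 rose (80% past the adjusted p, against 46.7% of all genes tested). Bcl6, a transcriptional repressor, rose from 53.9 ± 1.55 to 76.4 ± 1.17 CPM (log2 fold change 0.50, SE 0.0372, edgeR adjusted p = 9.19e-08). Gadd45b and the cell cycle inhibitor Cdkn1a (p21) rose by 0.46 and 0.18 on the log2 scale. Bcl2l11, the apoptosis gene BIM, fell from 12.8 ± 0.544 to 9.55 ± 0.290 CPM (log2 fold change -0.42). Cited2, Cdkn1b (p27) and Rbl2 fell by 0.16, 0.15 and 0.13 on the log2 scale. Among 3 genes reported as repressed by FoxO proteins, Pparg fell (-0.31), Ccnd1 rose (0.17) and Ccnd2 had an edgeR adjusted p of 0.402.

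**Figure D5:**
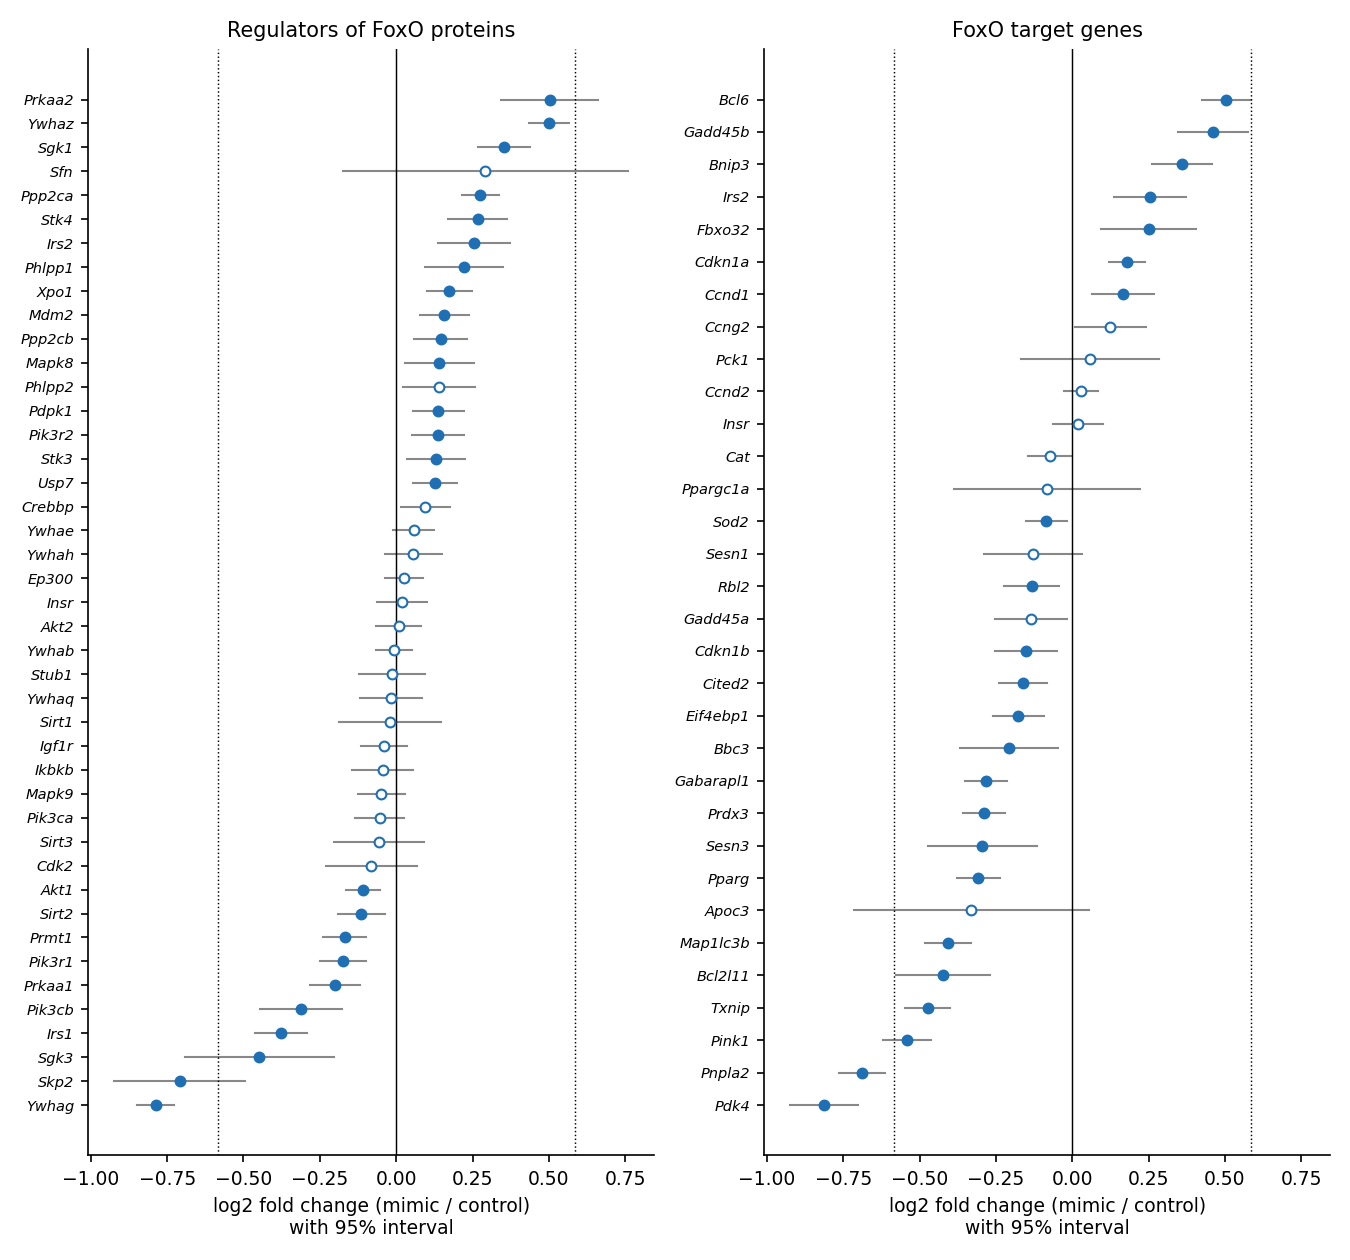
Log2 fold changes (x axes, mimic over control) with 95% intervals of the 43 regulators (left) and the 32 tested targets (right), genes ordered by value on the y axes, with filled points for an adjusted p under 0.05 and dotted lines at 1.5-fold. Ywhag and Skp2 lie past the line at the bottom left and Pdk4 and Pnpla2 at the bottom right, with fold changes from -0.81 to 0.50 among the targets.

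The consensus FoxO motif GTAAACA, or TGTTTAC on the other strand, was searched in RefSeq promoters from 250 bases before to 50 bases after each gene's start. It was present in 4.05% of 27025 genes and in 5 of the 31 targets with a promoter in the table (16.1%), namely Bbc3, Bcl2l11, Sesn1, Trim63 and Txnip. These were named after the search. Of them Bcl2l11, Bbc3 and Txnip fell, Sesn1 did not pass the test, and Trim63 was not tested. Only 2 of the FoxO genes had a promoter in the table, and neither held the motif.

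The forkhead class as a whole was used to place the FoxO genes. Of 44 forkhead genes listed, 22 were tested, and the other 22 had at most 9 reads in any sample. Outside the FoxO family 18 were tested, of which 9 rose and 4 fell, with a median log2 fold change of 0.21. These 13 are 72.2% of the 18, against 46.7% of all genes tested (23.2% higher and 23.5% lower). Foxp1 rose from 58.7 ± 1.58 to 78.8 ± 1.92 CPM (log2 fold change 0.42, SE 0.0372, edgeR adjusted p = 5.21e-07). Foxk1, Foxk2 and Foxc2 rose by 0.31, 0.27 and 0.43 on the log2 scale. Foxm1, a cell cycle regulator, fell from 14.4 ± 1.27 to 8.86 ± 0.527 CPM (log2 fold change -0.70, SE 0.0826, edgeR adjusted p = 9.41e-06). Foxn2, Foxn3 and Foxf2 fell by 0.43, 0.26 and 0.63 on the log2 scale. Foxn2 and Foxn3 each held 2 TTGCCAA matches and Foxf2 held 1, as did Foxp1, which rose. Foxo1 thus stood among the 6 forkhead genes that fell, together with Foxo4 and these 4.

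The Foxo1 count has a limit from its gene model. The antisense gene Gm20402 shares 674 exon bases with Foxo1 on the opposite strand, and whether counting used the strand is not given in the sources used here. Stretches of Foxo1 transcript of 50 bases or more matched transcripts of other genes 15 times at 95% identity or above. Foxo3 and Foxo4 had 0 such matches. Gm20402 is itself among the genes matched, and its overlap with Foxo1 is at the same locus. Reads from stretches shared with genes elsewhere may have been set aside as not unique.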

How the data were processed

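Poly(A) RNA from 6 samples was sequenced, and the files that the authors deposited hold unnormalized counts of reads for 22609 gene symbols. The submitters' processing notes name bcl2fastq, TopHat2, HTSeq and the mm9 build. The annotation and strand setting are not given in the sources used here. The 5 tally lines were left out, and they set aside alignments as not unique, so genes with near copies can lose reads. With 25869810 to 28796712 reads on genes, each FoxO gene but Foxo6 had at least 530 reads per sample.

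Counts were tested in R 4.3.3 with edgeR 4.0.16 (TMM, filterByExpr at its default minimum of 10 reads, then glmQLFit and glmQLFTest, two-sided, 2 groups without a block) and adjusted by Benjamini-Hochberg over 13117 genes. The script was tested on simulated data in which far fewer genes changed than passed the adjusted p here. Intervals of 95% use edgeR's residual degrees of freedom. Ratios were tested by exact permutation on log2(CPM + 0.1). Replicates differed by more than counting noise (chi-square per degree of freedom 2.13 to 7.19). Symbols were matched to GENCODE M21 (GRCm38) for 22178 genes, 1894 through an older symbol, and RefSeq supplied miRNAs and promoters. Shared stretches were found with blastn 2.17.0. Alternatives were DESeq2 1.42.0, limma-voom (limma 3.58.1), other scaling factors and filters, a replicate block and leaving out each sample.

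Members and lists were chosen with earlier results of these data known. Members and Foxo6 are given in full. Of regulators, targets and forkhead genes, up to 4 per direction and list with the smallest p among those past the adjusted p are named. Genes of these lists past both cutoffs are named as well, and for each member the 3 genes with the most similar pattern. Cell type markers are given mainly as sums and counts. Some list genes are not reported here and were left out of the list counts.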

Additional observations from a re-analysis of the deposited data

How the results depend on the processing

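Foxo1 kept its direction and its side of the threshold in all 13 alternatives, from -0.48 to -0.43 on the log2 scale. Foxo4 lost its call without the filter on low counts (-0.139, adjusted p = 0.0561), with DESeq2 (-0.135, adjusted p = 0.132) and with the replicate number as a block (-0.139, adjusted p = 0.061). Leaving out 1 sample at a time gave -0.166 to -0.0993 for Foxo4, which passed in 1 of these 6 fits, without control replicate 3 (adjusted p = 0.0429 to 0.18 over the 6), and -0.263 to -0.118 for Foxo3, which passed the test only without mimic replicate 3, and -0.482 to -0.43 for Foxo1. The cause was not tested. The main edgeR fit counted 25 regulators, 23 targets, 16 forkhead genes and 6124 genes in all past the threshold. Over the 13 alternatives, DESeq2 and limma-voom among them, the counts stayed within 1.5 times of these values. Samples with the same number did not deviate together (correlations of -0.185, -0.0436 and -0.0785). Pairing by number was thus not seen, but 3 samples per group cannot exclude it. With the block, Foxo1 was at -0.455 (edgeR adjusted p = 7.05e-05), Foxo3 at -0.179 (0.085), and 5716 genes passed. Depth limits Foxo6 most, with 18 to 37 reads per sample.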
